A study of Mus musculus with 53 samples.

Results

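The peroxisome proliferator-activated receptors (PPARs) and the retinoid X receptors (RXRs) were followed in NIH-3T3 cells, an established mouse fibroblast line, during hormone-induced adipocyte differentiation. The members were all probe sets annotated to Pparg, Ppara, Ppard, Rxra, Rxrb or Rxrg: 7 of 12488 probe sets on the array, for 6 genes of 8251 with a named probe set. Their Entrez gene numbers are 19016, 19013, 19015, 20181, 20182 and 20183 in that order. Rxra had 2 probe sets, called Rxra_at and Rxra_g_at here after the endings of their identifiers, which read the same gene and are not independent. Each other gene had 1 probe set. Cells had been transduced with EBF1 (early B-cell factor 1, a transcription factor), with PPARg2 (the adipocyte form of PPAR gamma, groups called PPARg here) or with empty vector, and all 3 lines received the hormones, so that the vector groups were also stimulated. RNA was taken at d0, d2, d4 and d10 of stimulation and measured on 53 Affymetrix MG_U74Av2 arrays. Each insert had 4 arrays at d0, 4 at d2 and 7 at d4, and d10 had 2 EBF1, 3 PPARg and 3 vector arrays. The labels name 7 independent stimulation experiments without assigning arrays to them and do not give the number of transduced lines, so the spread between arrays, and every p-value below, may be partly technical.

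PPARs are nuclear receptors that bind DNA as heterodimers with an RXR. Fatty acids and their derivatives are natural PPAR ligands, and 9-cis retinoic acid binds RXRs. In fat cells PPAR gamma is the central activator of the adipocyte program, and its gamma2 form is made from a start of its own, downstream of the gamma1 starts in the same gene. PPAR alpha is best known in liver and heart, where it drives fatty acid oxidation, PPAR delta is widely made, and RXR gamma is found mainly in muscle and brain.

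Since most of the results below concern Pparg, the 250 bases before the last 2 of its 3 RefSeq starts are shown (GRCm38.p6, plus strand). The capitals mark AGGTCA, the hexamer that PPARs and RXRs recognise, searched on both strands.
Pparg, start 2 (chr6:115362099-115362348): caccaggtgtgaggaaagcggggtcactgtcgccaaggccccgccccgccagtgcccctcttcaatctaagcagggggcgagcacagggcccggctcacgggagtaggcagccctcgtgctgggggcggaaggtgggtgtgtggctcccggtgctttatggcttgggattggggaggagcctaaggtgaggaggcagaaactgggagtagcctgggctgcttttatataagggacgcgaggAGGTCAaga
Pparg, start 3 (chr6:115421816-115422065): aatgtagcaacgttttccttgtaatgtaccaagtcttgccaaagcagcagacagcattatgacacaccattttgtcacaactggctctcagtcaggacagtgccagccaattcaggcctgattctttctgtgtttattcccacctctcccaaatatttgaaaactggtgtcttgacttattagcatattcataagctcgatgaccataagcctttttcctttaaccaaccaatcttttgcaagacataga
The second window held 1 AGGTCA, with its first base at position -9 relative to the start, and the third window held none. The window of start 1, not shown, also held 1. The GC content was 63.6% in the second window and 40.8% in the third. Over 11 windows of the 6 receptor genes, 4 held AGGTCA, against 14.0% of all 32851 RefSeq windows of that length. The core EBF motif CCCNNGGG, which reads the same on both strands, occurred in 3 of the 11 windows, 1 of Ppara and 2 of Rxrb, and in 11.8% of all windows. No receptor window held a direct repeat of AGGTCA with 1 base between the copies (0.0335% of all windows) or the C/EBP core TTGCGCAA (0.164% of all windows). These counts describe letters in the windows and do not locate binding.

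The deposited values are linear intensities, and array means lay between 309 and 370. For the tests, values were raised to a floor of 54.5, the 20th percentile of all values, and log2 was taken. A probe set was tested if it exceeded 158, the overall median, on at least 2 arrays, which kept 7619 probe sets. "Passed" means an adjusted p under 0.05 in limma over those probe sets. Of the receptors, Pparg, both Rxra probe sets and Rxrb were tested, each in 28 comparisons. Pparg met the filter only through groups where it is high, on 2 EBF1 and 3 PPARg arrays at d10 and 6 EBF1 and 7 PPARg arrays at d4, and exceeded 158 on no vector, d0 or d2 array, so its entry into the tests was not independent of those differences. The arrays were placed in 3 sessions by the year of hybridization in their instrument files. Session 1 is the arrays without a valid date, session 2 those of a single year and session 3 those of any other year. A session may therefore cover several runs. Sessions 1 and 2 hold d0, d2 and d4, and session 3 holds the last 3 d4 arrays of each insert and all d10 arrays. Fibroblast markers were above 158 on all arrays for 10 of 10 genes, including Col1a1. The Ebf1 probe set did not pass in EBF1 over vector on any day. At d4 its log2 difference was 0.11 ± 0.13 (SE; limma adjusted p = 0.647). Whether the Ebf1 and Pparg probes lie within the sequence that the vectors carry is not stated in the labels or files, so neither probe set checks the inserts, and the insert names below are those of the labels.

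Pparg was lowest before stimulation, rose in all 3 lines, and at d4 was 2.40-fold higher in EBF1 cells and 2.52-fold higher in PPARg cells than in vector cells. At d10 it had stayed high in EBF1 and PPARg cells and was below the floor again in vector cells. Before stimulation the EBF1 arrays read 17.3, 20.4, 17.9 and 18.3. The PPARg arrays read 59.9, 58.3, 89.3 and 68.9, and the vector arrays 16.5, 19.3, 20.8 and 21.8. PPARg cells were therefore above the floor on every array, while EBF1 and vector cells were below it on every array. With both at the floor, EBF1 over vector at d0 has no measured difference. PPARg over vector was at least 1.25-fold (log2 0.32 ± 0.17, adjusted p = 0.479) and did not pass at this floor, which lies above every vector value. With the floor at the 5th percentile, 17.1, the same comparison gave 1.79 ± 0.19 (adjusted p = 2.08e-09) and EBF1 over PPARg gave -1.88 ± 0.19 (adjusted p = 3.81e-10, against -0.32 and 0.386 with the higher floor). The share of all probe sets that passed at d0 was 0.814% in EBF1 over vector, 3.6% in PPARg over vector and 6.02% in EBF1 over PPARg.

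**Figure D1:**
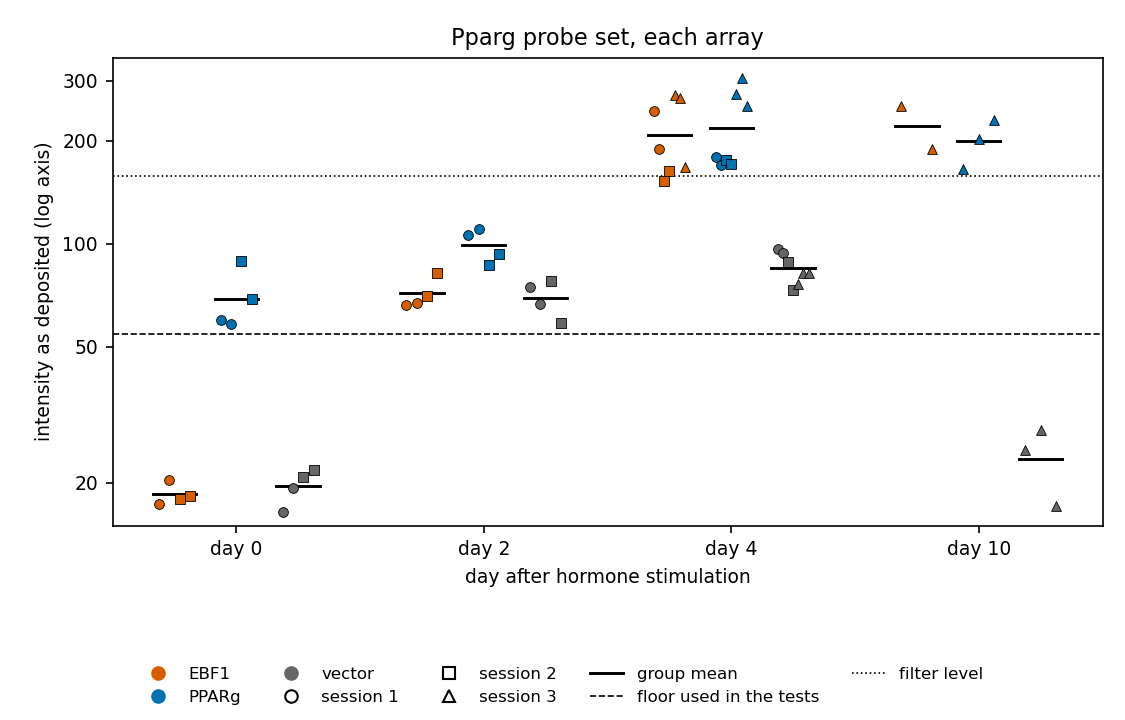
Pparg intensity as deposited (log axis) on each of the 53 arrays, by day, with EBF1, PPARg and vector arrays side by side, the symbol giving the session and the bar the group mean. At d4 and d10 the lowest insert array, at 152, lies above the highest vector array, at 96.4.

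At d2 the EBF1 arrays read 66.2, 67.2, 70.4 and 82.4 for Pparg. The PPARg arrays read 106, 111, 86.6 and 93.0, and the vector arrays 74.8, 66.6, 77.6 and 58.7. All PPARg arrays were above all EBF1 and vector arrays, whereas EBF1 and vector arrays overlapped. The log2 difference was 0.05 ± 0.17 for EBF1 over vector (adjusted p = 1), 0.51 ± 0.17 for PPARg over vector (adjusted p = 0.305) and -0.47 ± 0.17 for EBF1 over PPARg (adjusted p = 0.115). None of the 3 passed, where 1.54%, 0.564% and 5.15% of all probe sets did. In the arrays of session 1 alone, PPARg over vector passed (0.62, adjusted p = 0.0158), and so did EBF1 over PPARg (-0.70, adjusted p = 0.00328). EBF1 over PPARg also passed when only those groups were fitted (adjusted p = 0.0194).

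At d4 Pparg ranged over 152 to 272 with a median of 189.5 on the 7 EBF1 arrays. It ranged over 169.9 to 304 with a median of 179.7 on the 7 PPARg arrays, and over 73.5 to 96.4 with a median of 82.2 on the 7 vector arrays. No insert array overlapped the vector arrays, and EBF1 and PPARg arrays overlapped each other. Means were 208 ± 51.7 in EBF1 cells, 218 ± 57.4 in PPARg cells and 84.7 ± 8.68 in vector cells (SD, n = 7 each). The log2 difference over vector was 1.26 ± 0.13 for EBF1 (2.40-fold, adjusted p = 3.11e-10), where 18.9% of probe sets passed, and 1.33 ± 0.13 for PPARg (2.52-fold, adjusted p = 2.15e-10), where 7.49% did. EBF1 over PPARg was -0.07 ± 0.13 (adjusted p = 0.779; 5.95% of probe sets passed).

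The insert arrays at d4 also differed by session. In session 3 PPARg arrays lay at 254 to 304, against 169.9 to 179.7 on the 4 arrays of sessions 1 and 2, without overlap. EBF1 arrays in session 3 lay at 168 to 272, within which those of session 1 (189.5 and 244) fell, while those of session 2 lay at 152 and 163. Vector arrays showed no such rise, at 76.2 to 82.2 in session 3 and 73.5 to 96.4 before. Within sessions 1, 2 and 3 the log2 difference over vector was 1.18, 0.96 and 1.52 for EBF1 and 0.88, 1.10 and 1.79 for PPARg, and each passed.

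At d10 the EBF1 arrays read 253 and 189.7, the PPARg arrays 165, 202 and 230.3, and the vector arrays 24.9, 28.6 and 17.2. The vector arrays were all below the floor, so the folds are lower bounds. In all, 11 Pparg arrays were set to the floor and add no spread to the model. The SE and p-values given for Pparg at this floor may therefore be too small. EBF1 cells were at least 4.02-fold above vector (log2 2.01 ± 0.22, adjusted p = 5.82e-10; 18.3% of probe sets passed), and PPARg cells at least 3.62-fold (1.86 ± 0.20, adjusted p = 2.36e-10; 23.6% passed). With the floor at 17.1 the log2 differences were 3.25 ± 0.24 and 3.10 ± 0.22. EBF1 over PPARg was 0.15 ± 0.22 and did not pass (adjusted p = 1; 1.33% of probe sets did).

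In vector cells Pparg rose by d4 and had fallen by d10. Vector d4 over d0 was at least 1.55-fold (log2 0.63 ± 0.15, adjusted p = 0.00116), and vector d10 over d4 was -0.63 ± 0.17 (adjusted p = 0.00429). Their size rests on the floor: with 17.1 they were 2.10 ± 0.17 and -1.87 ± 0.18, and with a floor at the 40th percentile, 115, all of these arrays lie at the floor and nothing can be told. Vector d2 over d0 did not pass (0.34 ± 0.17, adjusted p = 0.168), but did with the lower floor (1.81 ± 0.19, adjusted p = 5.58e-11) and within session 1 alone (0.37, adjusted p = 0.0429). For vector cells, 21.5%, 24.2% and 15.4% of probe sets passed in d2, d4 and d10 over d0, and 18.4% in d10 over d4.

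In EBF1 cells Pparg rose at d4 over d0 by at least 3.72-fold (log2 1.90 ± 0.15, adjusted p = 1.53e-14) and at d10 over d0 by at least 4.02-fold (2.01 ± 0.21, adjusted p = 6.96e-11). EBF1 d2 over d0 did not pass (0.39 ± 0.17, adjusted p = 0.105), but did with the lower floor (1.95 ± 0.19, adjusted p = 5.92e-12) and when only those groups were fitted (adjusted p = 0.0163). In EBF1 cells 22.2%, 33.3% and 27.6% of probe sets passed in d2, d4 and d10 over d0. In PPARg cells Pparg rose at d2 over d0 (0.53 ± 0.17, adjusted p = 0.0165), at d4 (1.64 ± 0.15, adjusted p = 1.27e-12) and at d10 (1.54 ± 0.18, adjusted p = 2.54e-09). The rise at d2 no longer passed without PPARg d0 replicate 1 (adjusted p = 0.0569), PPARg d0 replicate 2 (0.0706) or PPARg d2 replicate 2 (0.0594), and the arrays of the 2 days overlapped. It did not pass within session 2 alone (0.19, adjusted p = 0.476). In PPARg cells 23.6%, 31.9% and 32.2% of probe sets passed in these 3 comparisons. From d4 to d10 the difference was 0.11 ± 0.19 in EBF1 cells (adjusted p = 0.801; 15.1% of probe sets passed) and -0.10 ± 0.17 in PPARg cells (adjusted p = 0.729; 18.2% passed). These values pool the d4 arrays of all sessions, whereas all d10 arrays are of session 3. Within session 3 the PPARg arrays read 254 to 304 at d4 and 165 to 230.3 at d10, with only 3 arrays on each day. The EBF1 arrays of session 3 overlapped, at 168 to 272 and 189.7 to 253.

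The differences from vector were themselves compared between days. For EBF1 the difference was larger at d4 than at d0 by 1.26 ± 0.21 on the log2 scale (adjusted p = 7.43e-05; 7.26% of probe sets passed) and at d10 by 2.01 ± 0.28 (adjusted p = 2.99e-07; 12.7% passed). For PPARg it was larger at d10 than at d0 by 1.54 ± 0.26 (adjusted p = 2.24e-05; 12.3% passed). The difference for PPARg was larger at d4 than at d0 by 1.01 ± 0.21 (adjusted p = 0.00587; 1.64% passed). This last value rested on the floor, which the vector arrays at d0 lie below: with the floor at 17.1 the sign turned, to -0.46 ± 0.23 (adjusted p = 0.543). Within session 2 alone, the d4 changes did not pass for EBF1 (0.96, adjusted p = 0.144) or PPARg (0.58, adjusted p = 0.992).

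Ordered by group mean, Pparg was highest in EBF1 d10 (221), PPARg d4 (218), EBF1 d4 (208) and PPARg d10 (199.2), 4 groups whose arrays overlapped from each to the next. A 2.01-fold gap with no overlap separated them from PPARg d2 (99.1), vector d4 (84.7), EBF1 d2 (71.5), vector d2 (69.4) and PPARg d0 (69.1), whose neighbours also overlapped. Below these, without overlap, came vector d10 (23.6), vector d0 (19.6) and EBF1 d0 (18.5), whose arrays all lay below the floor, so that no fold and no order among them is given.

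Adipocyte markers, taken as a sum, were also higher in both insert lines than in vector cells at d4 and d10. The sum weights bright genes most, and not every marker followed. In PPARg over vector at d4 Adipoq, Lpl and Cidec passed. Cd36 (-0.11 ± 0.15, limma adjusted p = 0.807) and Fabp4 (0.61 ± 0.27, 0.202) did not. The summed intensity of the 8 adipocyte markers on the array (among them Adipoq, Lpl and Cidec, which are also PPAR target genes) was 8987 to 14296 on EBF1 arrays, 10227 to 12760 on PPARg arrays and 6081 to 8397 on vector arrays at d4. At d10 it was 20977 to 24098 on EBF1 arrays, 18472 to 20818 on PPARg arrays and 3671 to 5703 on vector arrays. In both insert lines the sums at d10 lay above those at d4 without overlap, while Pparg did not pass between these days over the pooled d4 arrays. Within session 3, with only 3 PPARg arrays on each day, Pparg averaged 278 at d4 and 199.2 at d10 in PPARg cells. At d0 the sums overlapped, at 1855 to 2109 on PPARg arrays and 1422 to 2108 on vector arrays, although the Pparg arrays did not overlap there. In vector cells the sums at d10 lay above those at d0, where Pparg was below the floor on both days. Summed fibroblast markers were 15748 to 18840 on EBF1 arrays, 16962 to 22149 on PPARg arrays and 19706 to 27377 on vector arrays at d4. At d10 they were 28791 to 29218 on EBF1 arrays, 22643 to 22796 on PPARg arrays and 36467 to 42536 on vector arrays. EBF1 arrays lay below vector arrays on both days, and PPARg arrays at d10. Of other cell types, 1 of 6 macrophage, 1 of 4 B cell, 0 of 4 endothelial, 1 of 4 epithelial and 3 of 4 skeletal muscle markers on the array exceeded 158 on all arrays. These were Cd14, Cd79a, Krt8, Myog, Actc1 and Des, while Ptprc, Epcam and Krt18 were at the floor on every array. The summed level of these lists ran over groups from 743 to 922 for macrophage, 617 to 701 for B cell, 362 to 446 for endothelial, 534 to 675 for epithelial and 1178 to 2183 for skeletal muscle markers. In RNA of whole cultures, a change in the number of fat cells and a change in RNA per cell cannot be told apart, and the part of these markers in the Pparg result was not tested.

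Rxra, the gene of RXR alpha, which pairs with PPAR gamma in fat cells, rose after stimulation in all 3 lines with both probe sets and was lower again at d10 than at d4. Before stimulation Rxra_at read 491, 496, 495 and 502 on EBF1 arrays, 476, 504, 505 and 523 on PPARg arrays and 485, 482, 513 and 534 on vector arrays. At d2 it read 618, 687, 788 and 701 on EBF1 arrays, 681, 656, 771 and 692 on PPARg arrays and 620.1, 680.4, 555 and 655 on vector arrays. In each line every d2 array was above every d0 array. At d4 the range was 549 to 823 (median 599) on EBF1 arrays, 684 to 836 (median 770.3) on PPARg arrays and 636 to 841 (median 669) on vector arrays. At d10 it read 472 and 499.8 on EBF1 arrays, 584, 555 and 499 on PPARg arrays and 519, 541 and 521 on vector arrays. The d10 and d4 arrays of each line did not overlap.

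**Figure D2:**
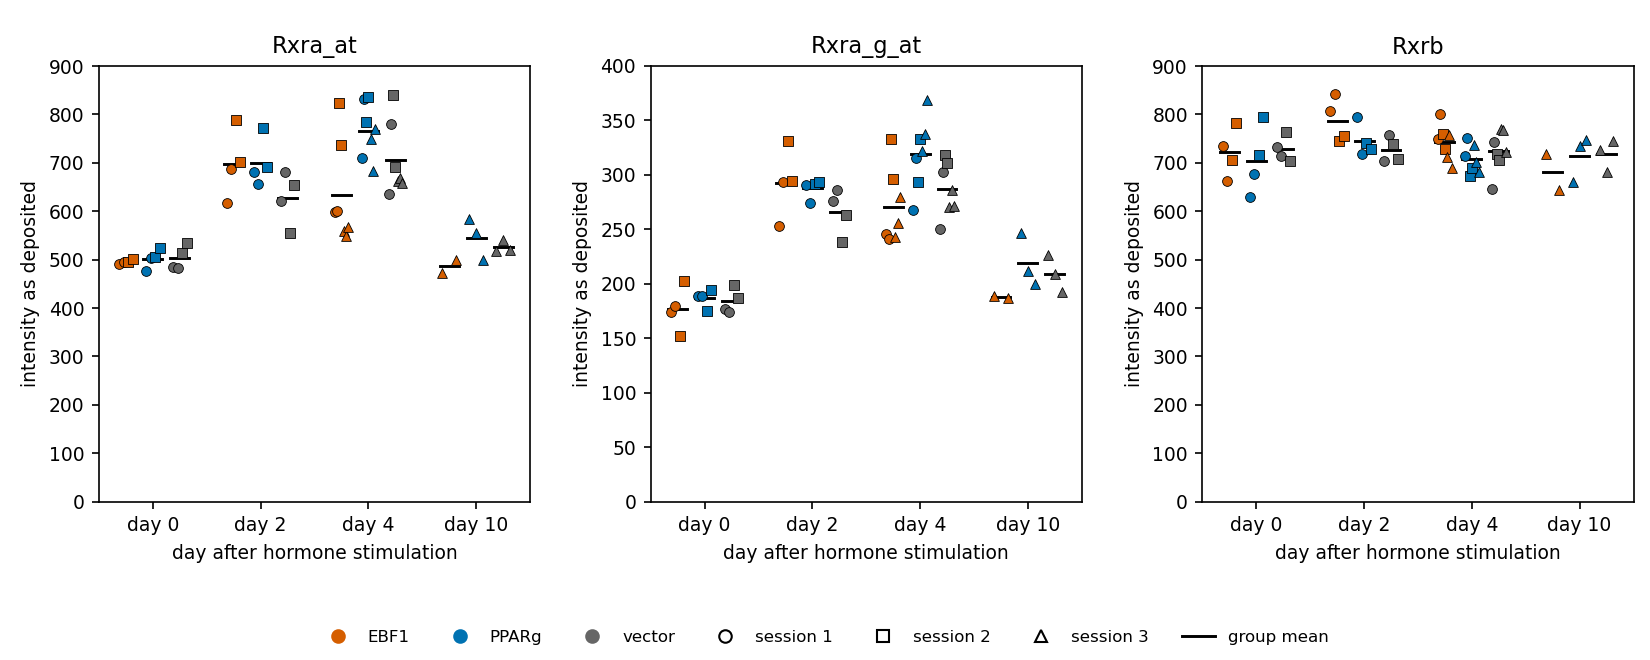
Intensity as deposited of both Rxra probe sets and of Rxrb on each array, by day and insert, with symbols for the session and bars for the group mean. Rxra rises at d2 and d4 in all inserts and is lower again at d10, while Rxrb stays between 629 and 842 on all arrays.

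For Rxra_at the log2 difference of d4 over d0 was 0.34 ± 0.09 in EBF1 cells (adjusted p = 0.00138), 0.61 ± 0.09 in PPARg cells (1.01e-07) and 0.48 ± 0.09 in vector cells (1.57e-05). For d2 over d0 it was 0.49 ± 0.10 (adjusted p = 8.49e-05), 0.48 ± 0.10 (0.000115) and 0.32 ± 0.10 (0.0128). The last of these no longer passed without vector d2 replicate 2 (adjusted p = 0.0534) or when only those groups were fitted (0.0691). From d4 to d10 Rxra_at fell by 0.37 in EBF1 cells (SE 0.11, adjusted p = 0.0149), by 0.49 in PPARg cells (SE 0.09, 9.86e-05) and by 0.42 in vector cells (SE 0.09, 0.000817). The fall in EBF1 cells was lost without EBF1 d10 replicate 1 (adjusted p = 0.225) or replicate 2 (0.0636), and within session 3 alone it was -0.20 (0.255). The d10 over d0 differences did not pass, at -0.03 ± 0.12 in EBF1 cells, 0.12 ± 0.10 in PPARg cells and 0.07 ± 0.10 in vector cells. These 2 days share no session, and with the session as a block the value in PPARg cells was 0.30 and passed (adjusted p = 0.0179). Such calls between days were common. In EBF1, PPARg and vector cells 33.3%, 31.9% and 24.2% of all probe sets passed at d4 over d0, and 22.2%, 23.6% and 21.5% at d2 over d0. At d10 over d4 15.1%, 18.2% and 18.4% passed, and at d10 over d0 27.6%, 32.2% and 15.4%.

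The second Rxra probe set, Rxra_g_at, lay at lower intensities, 152 to 369. It rose at d4 over d0 by 0.61 ± 0.09 in EBF1 cells (adjusted p = 9.96e-08), 0.77 ± 0.09 in PPARg cells (3.83e-10) and 0.64 ± 0.09 in vector cells (6.56e-08). At d2 over d0 the log2 differences were 0.73, 0.62 and 0.53 in EBF1, PPARg and vector cells, and all 3 passed. From d4 to d10 the probe set fell by 0.52, 0.54 and 0.45, which passed in all 3 lines. The d10 over d0 differences did not pass, at 0.09 ± 0.12 in EBF1 cells, 0.23 ± 0.11 in PPARg cells (adjusted p = 0.0969) and 0.18 ± 0.11 in vector cells (0.266). In PPARg cells the arrays of d10 read 200.2 to 247 and those of d0 175 to 194. These 2 days share no session. Over the 12 group means the 2 probe sets correlated at r = 0.984.

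Between inserts Rxra passed in 1 of 12 comparisons, EBF1 over PPARg at d4, with both probe sets, where 5.95% of all probe sets passed. The log2 difference was -0.29 ± 0.07 for Rxra_at (adjusted p = 0.00931) and -0.24 ± 0.07 for Rxra_g_at (0.037), and the arrays of the 2 groups overlapped. The size of the difference varied over the sessions, and whether the sessions differ was not tested. For Rxra_at, EBF1 arrays averaged 600.2 and PPARg arrays 771 in session 1, 780.3 and 810.4 in session 2, and 558 and 734 in session 3. Within these sessions the log2 differences were -0.36 (adjusted p = 0.102), -0.06 (0.96) and -0.39 (0.0288). When only those 2 groups were fitted neither probe set passed (0.0941 and 0.138), and Rxra_g_at no longer passed when any 1 of 9 arrays was left out (adjusted p of 0.0524 to 0.109). EBF1 over vector at d4 was -0.16 ± 0.07 for Rxra_at (adjusted p = 0.121). It passed without EBF1 d4 replicate 3 (-0.23, adjusted p = 0.0118) or replicate 4 (-0.20, 0.0469), the arrays of session 2, and with the session as a block (0.0399). PPARg over vector at d4 was 0.12 ± 0.07 (adjusted p = 0.412). At d10 EBF1 over vector did not pass with either probe set (-0.12 ± 0.12 and -0.15 ± 0.13). No change of the difference from vector between days passed for either probe set.

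Rxrb, the gene of RXR beta, a widely made partner of the same receptors, passed in none of 28 comparisons, where 0.564% to 33.3% of all probe sets passed. Its smallest adjusted p was 0.215, and 0 of 28 unadjusted p-values were under 0.05. Intensities lay between 629 and 842 on all arrays. Group means ran from 681 ± 51.8 in EBF1 d10 (SD, n = 2) to 787 ± 45.8 in EBF1 d2 (SD, n = 4), and neighbouring groups in that order overlapped throughout. At d4 the mean was 742 ± 36.4 in EBF1 cells, 707 ± 29.2 in PPARg cells and 725 ± 42.2 in vector cells (SD, n = 7 each). The log2 differences ran from -0.12 to 0.13 over the 28 comparisons. After quantile normalization 2 comparisons passed, EBF1 d2 over d0 (0.16, adjusted p = 0.0487) and PPARg d2 over d0 (0.20, adjusted p = 0.00869).

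**Figure D3:**
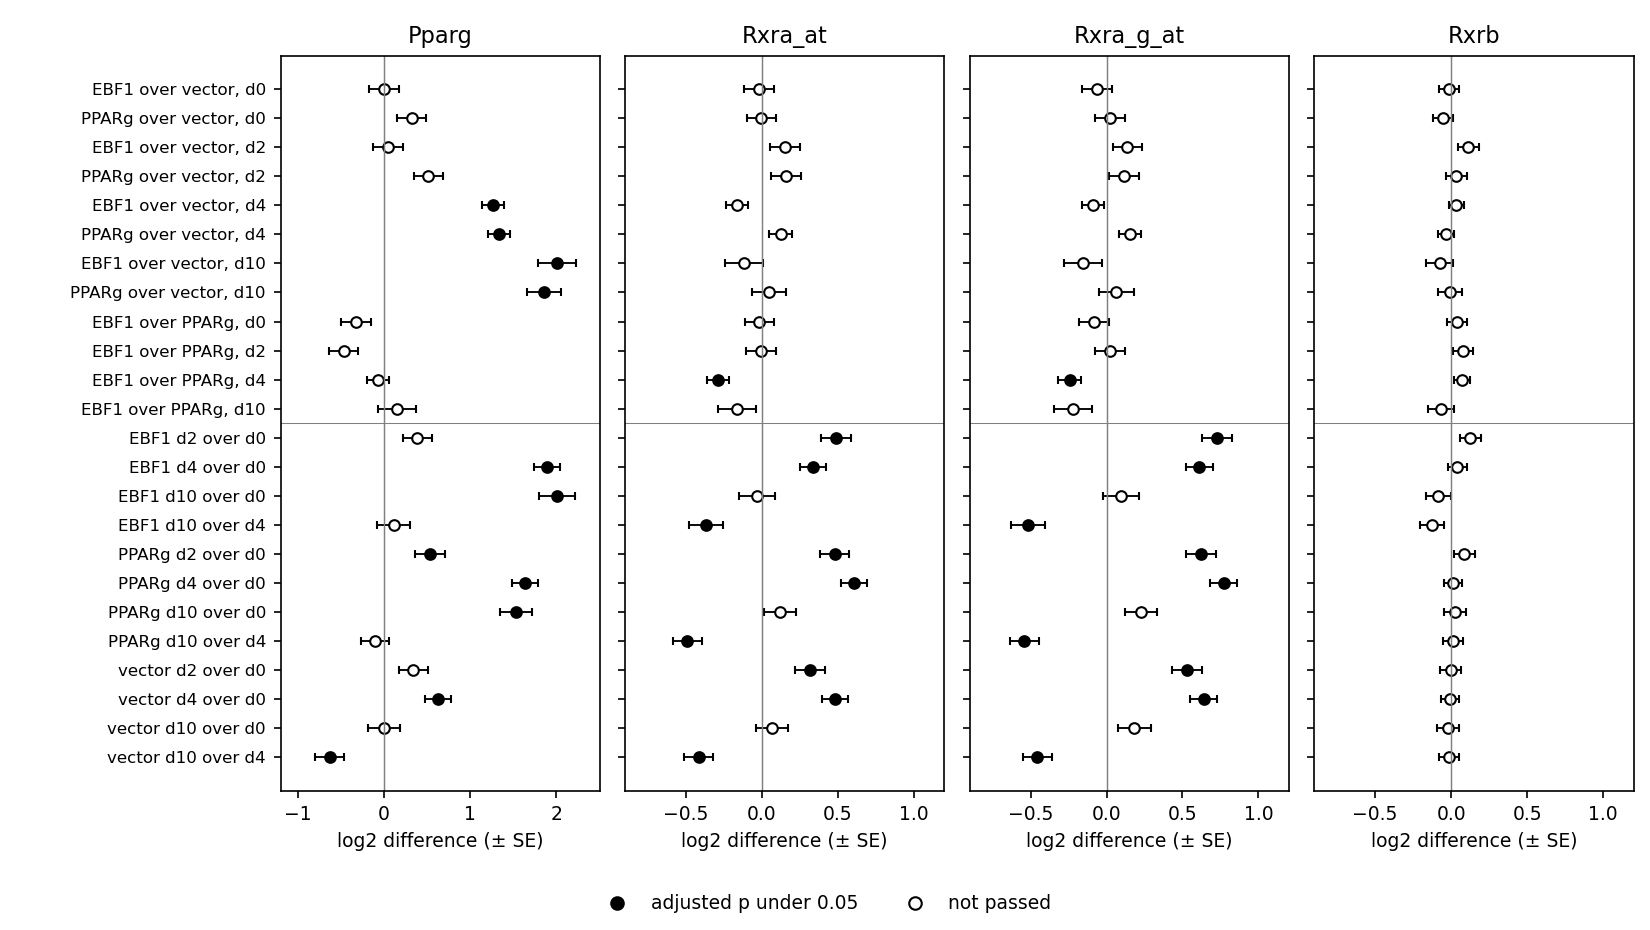
Log2 differences with SE from limma for the 4 tested receptor probe sets in the 12 comparisons of inserts (above the line) and the 12 of days (below it), filled where the adjusted p was under 0.05. Pparg differs between EBF1 or PPARg and vector at d4 and d10, and between days in every insert. Both Rxra probe sets differ between days in every insert and in EBF1 over PPARg at d4. Rxrb differs in none of these.

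Ppara, Ppard and Rxrg were dim. None of the 3 exceeded 158 on any of the 53 arrays, so they were not tested with the others, and a difference was not detectable rather than absent. Ppara, the gene of PPAR alpha, lay between 42.9 and 84.0, with 11 arrays at or below the floor. Ppard, the gene of PPAR delta, lay between 54.7 and 105, and Rxrg, the gene of RXR gamma, between 69.3 and 126. At d10 Ppara averaged 64.5 ± 7.87 in EBF1 cells (SD, n = 2), 67.8 ± 4.16 in PPARg cells and 50.6 ± 7.09 in vector cells (SD, n = 3 each). Of its 3 vector arrays at d10, 2 were at or below the floor. At d10 Rxrg averaged 97.5 ± 15.7, 113 ± 4.53 and 89.6 ± 27.2 in EBF1, PPARg and vector cells, and the PPARg arrays lay within the range of the vector arrays. At d4 Ppard averaged 78.1 ± 9.94, 70.7 ± 4.26 and 75.8 ± 8.84 in EBF1, PPARg and vector cells (SD, n = 7 each), with overlap throughout. In a fit of all 12422 probe sets without the filter, none of the 3 passed in any of 28 comparisons. The smallest adjusted p was 0.177 for Ppara, 0.211 for Ppard and 0.167 for Rxrg, and 1, 0 and 2 unadjusted p-values were under 0.05. Their log2 differences reached from -0.15 to 0.29, from -0.23 to 0.14 and from -0.23 to 0.37.

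**Figure D4:**
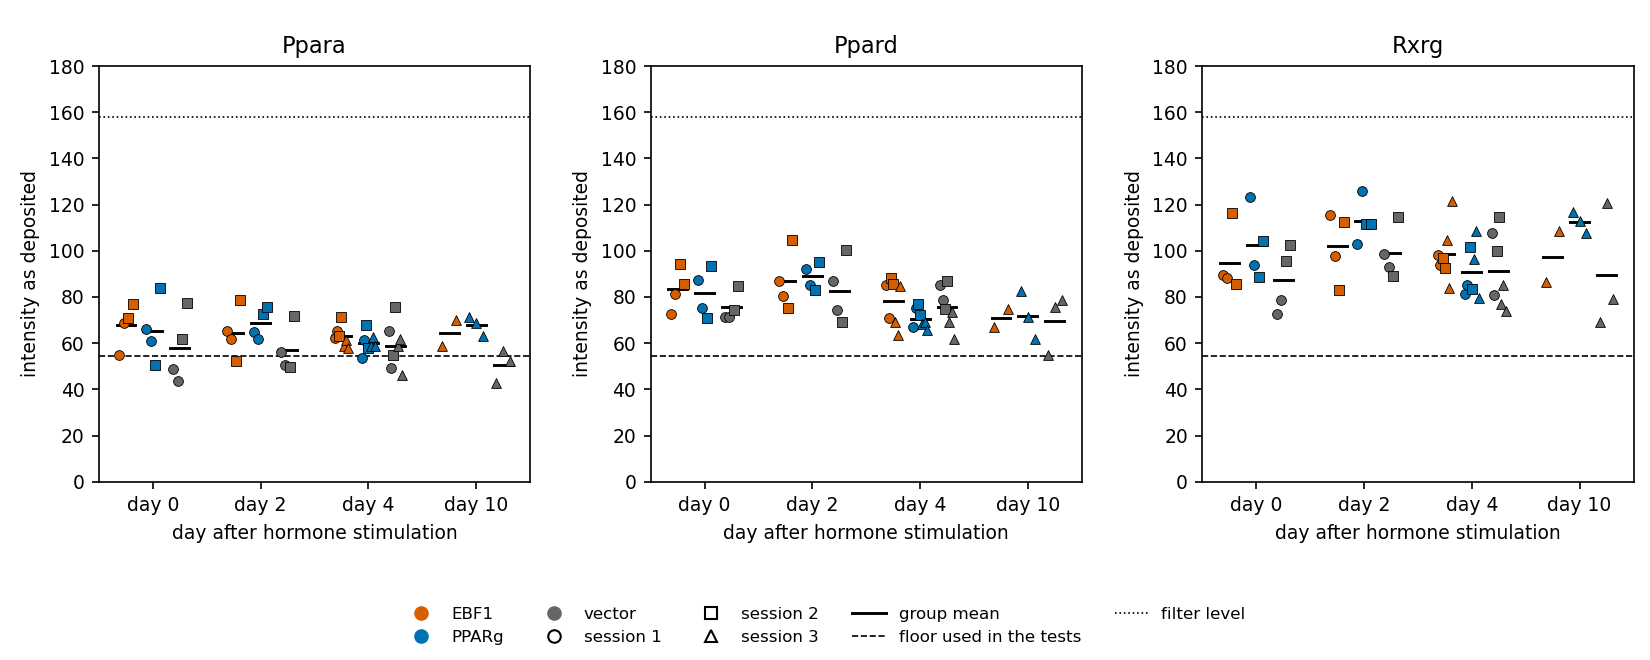
Intensity as deposited of Ppara, Ppard and Rxrg on each array, by day and insert, with the floor (54.5, dashed) and the filter level (158, dotted). No array reaches the filter level, and 11 Ppara arrays are at or below the floor.

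Many genes that PPARs are known to switch on were higher in both insert lines than in vector cells. Of 55 listed PPAR target genes, 35 were tested. In EBF1 over vector 18 were higher and 1 lower at d4, and 28 higher and 0 lower at d10. In PPARg over vector 20 were higher and 0 lower at d4, and 28 higher and 0 lower at d10. Among all 5766 genes, 11.3% were higher and 8.15% lower in EBF1 over vector at d4, and 10.6% and 7.89% at d10. In PPARg over vector the shares were 5.95% and 1.98% at d4, and 9.63% and 14.5% at d10. The median log2 difference of the 35 genes was 0.30 for EBF1 and 0.47 for PPARg at d4, and 1.95 for EBF1 and 1.41 for PPARg at d10. That of all genes was 0.04 and -0.02 at d4, and -0.02 and -0.01 at d10. These comparisons share their vector arrays. The counts at d4 depended on the arrays used: within single sessions 6 to 17 genes were higher in EBF1 and 7 to 13 in PPARg.

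Adipoq, which encodes the fat cell hormone adiponectin, averaged 3975 in EBF1 cells, 2360 in PPARg cells and 964 in vector cells at d4. Its log2 difference over vector was 2.05 ± 0.17 in EBF1 cells (adjusted p = 1.49e-12) and 1.30 ± 0.17 in PPARg cells (6.48e-07). At d10 it averaged 7699, 6427 and 879.6. Gpd1, which makes glycerol phosphate for triglyceride synthesis, was higher at d4 by 2.01 ± 0.15 in EBF1 cells and 1.11 ± 0.15 in PPARg cells. Etfdh, of the mitochondrial electron transfer from fatty acid oxidation, was higher at d4 by 1.21 ± 0.14 in EBF1 cells and 0.68 ± 0.14 in PPARg cells. Plin4, a coat protein of lipid droplets, was higher at d4 by 1.01 ± 0.13 in PPARg cells. Its difference in EBF1 cells did not pass (-0.26 ± 0.13, adjusted p = 0.197). Cpt1a, which admits fatty acids to mitochondria, was the gene that was lower in EBF1 cells at d4, by a log2 difference of -0.39 ± 0.10 (adjusted p = 0.00435). At d10 Cidec, a lipid droplet protein, was higher by 3.41 ± 0.22 in EBF1 cells and 3.11 ± 0.20 in PPARg cells. Pck1, of glycerol synthesis in fat cells, was higher at d10 by 2.91 ± 0.24 in PPARg cells.

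**Figure D5:**
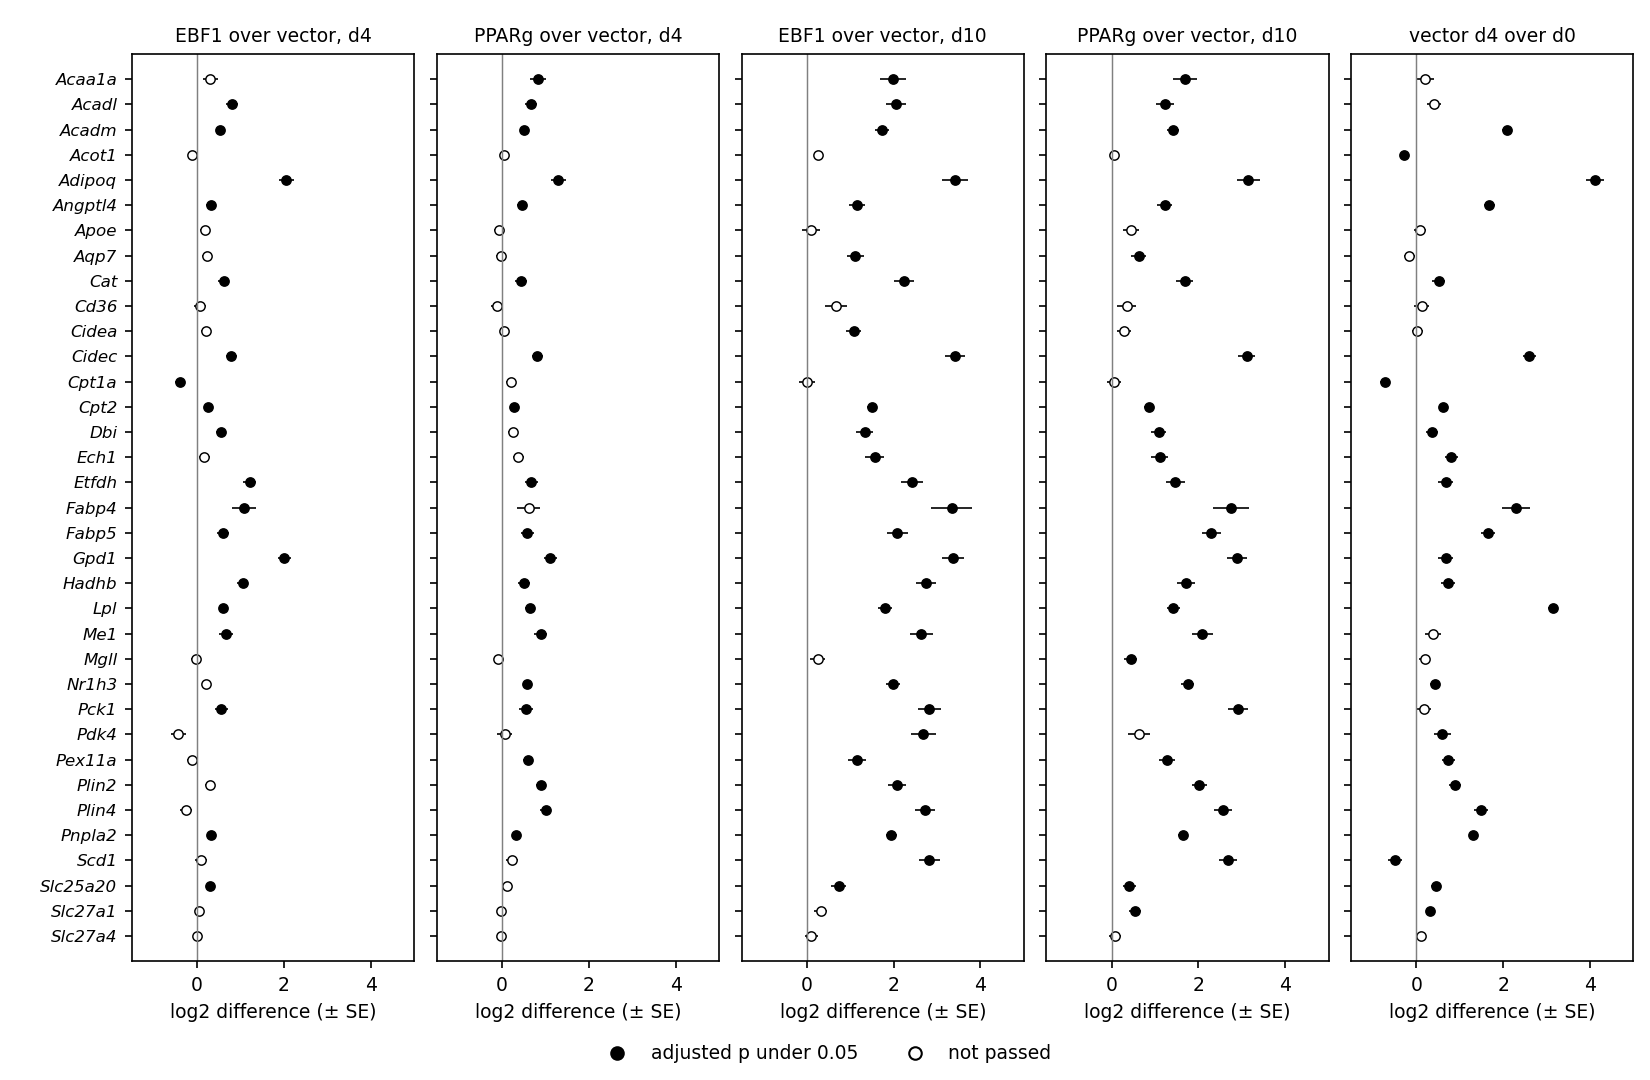
Log2 differences with SE from limma for the 35 tested PPAR target genes in EBF1 and PPARg over vector at d4 and d10 and in vector d4 over d0, filled where the adjusted p was under 0.05. At d10, 28 of 35 genes are filled to the right of 0 in each insert.

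Target genes moved in vector cells too. In vector d4 over d0, 22 of the 35 were higher and 3 lower, where 11.7% and 13.4% of all genes were. Adipoq was higher by 4.12 ± 0.20, Lpl, which releases fatty acids from lipoproteins, by 3.15 ± 0.11, and Cidec by 2.60 ± 0.15. Cpt1a (-0.72 ± 0.12) and Scd1 (-0.50 ± 0.16), which desaturates fatty acids, were among the lower genes. In vector d10 over d4, 1 target gene was higher and 11 were lower, where 11.7% and 7.32% of all genes were.

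Of 13 listed nuclear receptors that also pair with RXR, 8 were tested. At d4, 0 were higher and 1 lower in EBF1 cells (11.3% and 8.15% of all genes) and 1 higher and 0 lower in PPARg cells (5.95% and 1.98%). At d10, 1 was higher and 1 lower in EBF1 cells (10.6% and 7.89% of all genes) and likewise in PPARg cells (9.63% and 14.5%). With 8 genes, these counts are near the shares of all genes. Nr1h3, the gene of the liver X receptor alpha and itself a listed PPAR target, was higher at d10 by 2.00 ± 0.16 in EBF1 cells (adjusted p = 7.73e-14) and 1.75 ± 0.14 in PPARg cells (1.46e-13), with means of 245, 205 and 61.0 in EBF1, PPARg and vector cells. At d4 Nr1h3 was higher in PPARg cells (0.57 ± 0.09). Its d10 arrays read 213 to 277 in EBF1 cells, 185 to 235 in PPARg cells and 56.0 to 67.3 in vector cells, near the floor. Vector arrays at d0 and d4 and PPARg arrays at d4 were below the filter level of 158. Its entry into the tests may therefore not be independent of the d10 differences. With a stricter filter (above 215 on at least 4 arrays) 6 of the 8 genes were tested and 0 were higher at d10. With the floor at 115, 0 were higher in PPARg cells at d4. Thra, of a thyroid hormone receptor, was lower at d10 by a log2 difference of -0.75 ± 0.16 in EBF1 cells and -0.66 ± 0.14 in PPARg cells, and at d4 in EBF1 cells (-0.30 ± 0.09). The others did not pass between inserts and vector at d4 or d10. In vector d4 over d0 Rara, of a retinoic acid receptor, Nr1h3 and Thra were higher, by 0.56 ± 0.16, 0.43 ± 0.11 and 0.36 ± 0.11.

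Of 22 listed coactivators and corepressors, which the receptors recruit, 12 were tested. At d4, 1 was higher and 1 lower in EBF1 cells (11.3% and 8.15% of all genes) and 1 higher and 0 lower in PPARg cells (5.95% and 1.98%). At d10, 1 was higher and 1 lower in EBF1 cells (10.6% and 7.89% of all genes), and 0 were higher and 3 lower in PPARg cells (9.63% and 14.5%). Ncoa4, a coactivator also known for ferritin turnover, was higher at d4 by 0.37 ± 0.12 in EBF1 cells and 0.59 ± 0.12 in PPARg cells. Cited2, which binds the coactivators CBP and p300, was lower at d4 in EBF1 cells (-0.71 ± 0.10). At d10 Crebbp, the CBP gene, was lower in PPARg cells (-0.51 ± 0.13), and so was Cited2 (-0.54 ± 0.15), and Med24, of the Mediator complex, was lower in EBF1 cells (-0.29 ± 0.10). In vector d4 over d0 Nrip1 (0.59 ± 0.22), a corepressor, and Tbl1xr1 (0.50 ± 0.14), of a corepressor complex, were higher.

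Transcription factors known to act on the Pparg gene were listed as 20 genes, of which 14 were tested. At d4, 1 was higher and 3 lower in EBF1 cells (11.3% and 8.15% of all genes), and 1 higher and 1 lower in PPARg cells (5.95% and 1.98%). Klf4, a factor of early differentiation, was lower by a log2 difference of -1.24 ± 0.14 in EBF1 cells (adjusted p = 2.74e-09) and -0.73 ± 0.14 in PPARg cells (0.000258), and Klf5 by -1.03 ± 0.14 in EBF1 cells (2.68e-07). Ddit3, which encodes an inhibitor of C/EBP factors, was higher in EBF1 cells (0.53 ± 0.13), and Stat5a in PPARg cells (0.22 ± 0.06). At d10, 3 were higher and 1 lower in EBF1 cells (10.6% and 7.89% of all genes), and 3 higher and 2 lower in PPARg cells (9.63% and 14.5%). Cebpb, an early inducer of Pparg, was higher by 1.41 ± 0.25 in EBF1 cells and 0.90 ± 0.22 in PPARg cells. Stat5a was higher by 0.61 ± 0.10 and 0.76 ± 0.09, and Srebf1, a regulator of lipid synthesis, by 0.47 ± 0.14 and 0.66 ± 0.13. Klf4 was lower in both, with log2 differences of -0.90 ± 0.23 and -1.44 ± 0.21, and so was Cebpd, another early C/EBP factor, in PPARg cells (-1.22 ± 0.21). In vector d4 over d0, 6 were higher and 1 lower (11.7% and 13.4% of all genes), led by Klf5 (1.63 ± 0.17), Srebf1 (1.54 ± 0.10) and Cebpd (0.98 ± 0.16), with Ddit3 lower (-0.99 ± 0.15).

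Of 14 listed genes of ligand supply or of kinases that act on PPAR gamma, 8 were tested. Xdh, which encodes xanthine dehydrogenase, was the 1 gene of these 8 that passed in EBF1 or PPARg over vector at d4 and d10, lower in each, where 8.15% and 1.98% of all genes were lower at d4 and 7.89% and 14.5% at d10. A count of 1 in 8 is near those shares in most of these comparisons. At d4 it averaged 264 in EBF1 cells, 387 in PPARg cells and 534 in vector cells, with log2 differences over vector of -1.05 ± 0.16 (adjusted p = 1.69e-06) and -0.50 ± 0.16 (0.0419). At d10 they were -0.84 ± 0.27 and -0.93 ± 0.24, at low means of 65.0, 62.5 and 119 in EBF1, PPARg and vector cells. In vector d4 over d0 Xdh (0.75 ± 0.19) and Alox12 (0.38 ± 0.10), a lipoxygenase, were higher, and Pla2g4a, a phospholipase that frees arachidonic acid, was lower (-1.48 ± 0.12).

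The genes whose 12 group means correlated best with those of Pparg, out of all tested probe sets with 1 gene, were Cebpg (r = 0.975), a C/EBP family member, Mecr (0.966), of mitochondrial fatty acid synthesis, Mrpl12 (0.964), of the mitochondrial ribosome, Noct (0.963), which encodes nocturnin, and Mknk2 (0.960), a protein kinase. Over the 53 arrays their r with Pparg was 0.792 to 0.935. Cebpg averaged 438 in EBF1 cells, 417 in PPARg cells and 274 in vector cells at d10, and Noct 552, 574 and 76.7. For Rxra_at they were Map3k6 (0.954), Fkbp5 (0.945), Ifi207 (0.944), Adam15 (0.939) and Klf9 (0.933), and for Rxra_g_at Map3k6 (0.953), Klf9 (0.943), Rrp1b (0.940), Fgfr2 (0.939) and Gnb5 (0.938). Rxrb followed no gene as closely, with Abhd14a first (0.906 over groups and 0.332 over arrays). Between receptors, Pparg correlated with Rxra_at at 0.243 and with Rxrb at -0.323 over the 12 groups. All of these describe groups measured on the same arrays, with values at the floor counted at the floor.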

How the data were processed

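Total RNA was measured on 53 Affymetrix MG_U74Av2 arrays. The deposited table gives 1 linear intensity per probe set and array, as the authors computed it; the summarisation and scaling are not given in the sources used here. No scaling was added. Groups came from the sample titles. The 66 control probe sets were left out. Probe sets were named from the platform annotation, updated through Entrez identifiers (10855 had 1 symbol, of which 10839 matched, 396 had several and 1237 none). Sequences came from RefSeq (GRCm38.p6).

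All 12 groups were fitted in 1 model with limma 3.58.1 (R 4.3.3), moderated with an intensity trend, and p-values were adjusted by Benjamini-Hochberg within each of 28 comparisons: 12 of inserts, 12 of days and 4 differences between days of the difference from vector. Where a list gene had several probe sets, the brightest by mean log2 was used. The precision is limited by the number of arrays. In a test on simulated data over 7619 probe sets, changes of 0.5 on the log2 scale were found in 76.1% of cases for EBF1 and 77.6% for PPARg over vector at d4, but in 37.3% and 40.3% at d10. Changes of 1 were found in 100% and 97% at d4, and in 89.6% and 97% at d10.

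The members, lists and tests were chosen with earlier results of these data known. Every receptor probe set was named. From each list came up to 3 genes with the largest rise and 2 with the largest fall that passed in 5 comparisons, and for each tested receptor the 5 genes most alike. Ebf1 was added after its values were seen, as were the markers named. Alternatives were quantile normalization, lower and higher floors, no filter, a stricter filter (above 215 on at least 4 arrays), only the groups compared, the session or replicate number as a block, single sessions and leaving out each array. Same-numbered arrays did not deviate together in most comparisons, so the number was not taken to pair them.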

Additional observations from a re-analysis of the deposited data

Results flagged for a closer look

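The EBF1 d0 group had 1 array apart from the others for Rxrg: replicate 3 read 116.4, against 85.5 to 89.4 on the other 3 arrays. Of 61 sets of 4 to 7 arrays examined in this way for the receptors, 1 held such an array, and chance gives about 1 in 20. Rxrg was not tested with the filter, and no result rests on this array.

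The Pparg difference from vector was not the same on different days. For EBF1 it was larger at d4 than at d0 by 1.26 (adjusted p = 7.43e-05) and at d10 than at d0 by 2.01 (adjusted p = 2.99e-07), both on the log2 scale. For PPARg it was larger at d4 than at d0 by 1.01 (adjusted p = 0.00587) and at d10 than at d0 by 1.54 (adjusted p = 2.24e-05). All 4 use the vector arrays at d0, which lie below the floor, so that the differences at d0 are cut short. With the floor at 17.1 the values were 1.36 and 3.34 for EBF1, and -0.46 and 1.31 for PPARg.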

How the results depend on the processing

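Several Pparg results rested on the floor. With the floor at the 5th percentile, Pparg passed in PPARg over vector at d0 (1.79, against 0.32), and the change of the PPARg over vector difference, d4 minus d0, turned to -0.46. With the floor at the 40th percentile, Pparg in vector d4 over d0 had a log2 difference of 0. Within session 1 alone, PPARg over vector at d2 passed (0.62), and Rxra_at in EBF1 over PPARg at d4 did not (-0.36). Within session 2 alone, Rxra_at gave -0.056, Rxra_g_at turned to 0.0076, and Pparg in vector d4 over d0 gave 0.57 and did not pass. With only the groups compared, Rxra_at in EBF1 over PPARg at d4 kept its -0.29 and did not pass. Single sessions hold 2 or 3 arrays a group. Leaving out each array in turn gave, for Pparg, 1.19 to 1.33 in EBF1 and 1.25 to 1.39 in PPARg over vector at d4, 1.80 to 2.21 and 1.75 to 1.99 at d10, and 0.60 to 0.66 in vector d4 over d0. For Rxra_at it gave -0.35 to -0.25 in EBF1 over PPARg at d4. With a replicate block, Pparg at d4 over vector kept 1.26 for EBF1 and 1.33 for PPARg, and the probe sets that passed numbered 1788 and 873, against 1440 and 571 without it. No receptor call changed with the replicate block. The number of probe sets that passed moved by over 1.5 times in other comparisons too. With only the groups compared it was 855 against 1393 in EBF1 over vector at d10, 115 against 274 in PPARg over vector at d0, 25 against 117 in EBF1 over vector at d2, 17 against 43 in PPARg over vector at d2 and 658 against 1172 in vector d10 over d0. In EBF1 over PPARg it was 636 against 392 at d2, and at d10 limma passed 0 against 101, with 470 at an unadjusted p under 0.05. With the session as a block it was 442 in PPARg over vector at d0, 92 at d2 and 694 in EBF1 over PPARg at d4 (453 without the block). In session 2 alone it was 195 in EBF1 and 40 in PPARg over vector at d4. Without EBF1 d10 replicate 1 it was 614 in EBF1 over vector and 12 in EBF1 over PPARg at d10. Without PPARg d10 replicate 1 it was 910 against 1389 in PPARg d10 over d4. Quantile normalization moved the median of all probe sets by at most 0.06. Dim receptors are limited by signal over background.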
